A study of Mus musculus with 4 samples.

Results

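The genes described here are 38 markers of heart fibroblasts and components of the extracellular matrix, chosen by name: every probe set whose only gene symbol in the array annotation was one of these names was taken. Of them, 37 were measured, by 88 probe sets, out of 18193 genes and 45037 probe sets in all, and the expression of Fbn1 (fibrillin-1) was not analysed here. The values come from 4 arrays of heart RNA from untreated C57B6 mice aged 3.6 months, 2 of wild-type mice and 2 of mice carrying the GSK-3α S21A knock-in, in which serine 21 of the kinase GSK-3α is replaced by alanine. The labels name no promoter, Cre line or pooling of animals, and do not say that the arrays of a genotype hold separate animals, so n counts arrays, and a p-value reflects only how far these arrays vary, which may be technical. Each value is a log2 signal per probe set, normalised by the authors over the 4 arrays. Where a gene had several probe sets, the one of highest mean over the 4 arrays stands for it (the representative), SE is the standard error of a difference, and a gene was said to have risen or fallen only at a limma adjusted p under 0.05 over all probe sets.

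Fibroblasts are the main source of interstitial matrix in the heart: they secrete fibrillar collagens that bear tension between muscle cells, and proteoglycans, microfibrils and glycoproteins that organise the fibrils. Crosslinking enzymes stiffen this network, and metalloproteinases and their inhibitors set its turnover. GSK-3 kinases act in the Wnt, insulin and TGF-β pathways, which fibroblasts use, and serine 21 is the site at which Akt and related kinases restrain the α form.

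No member rose or fell. Of 37 members measured, 0 passed the test, against 0.011% of all genes, and the smallest adjusted p was 0.458 (limma). By mean, 28 members were higher and 9 lower in the knock-in hearts, with a median log2 difference of 0.13 and a range from −0.77 for Timp1 to 0.58 for Col14a1. Without wild-type replicate 2, 19 members lay above 0 and 18 below, with a median of 0.05. Above 0 were 46.9% of all genes, but 65% of the 9874 genes with a mean log2 value of at least 7, a level that all 37 members exceeded, and whose median difference was 0.06. The members' share, 75.7%, lies nearer to that of genes with such a mean than to that of all genes. The 2 sets are not matched in signal. Median levels per array were 9.0 to 9.1 for those genes and 10.1 to 10.4 for the members. At an unadjusted p under 0.05, 7 members were higher and 1 lower, against 5.45% and 4.76% of all genes and 7.29% and 2.21% of the genes with a mean of at least 7. These counts became 3 and 2 under quantile normalisation or cyclic loess, 3 and 0 without wild-type replicate 2, 1 and 1 without knock-in replicate 2, and 4 and 1 with the replicate number as a block. Among all 88 member probe sets 14 were higher and 3 lower at that p, against 5.07% and 5.62% of all probe sets of any signal. Of the 73 with a mean of at least 7, 13 were higher and 2 lower. The share over all probe sets of such a mean was not counted, and genes of that mean were themselves uneven, at 7.29% and 2.21%. Gsn, Smoc2 and Col14a1 each gave more than 1 of the higher probe sets, so these are not separate genes. Every knock-in value lay above every wild-type value for 14 members and below for 4, against 22.5% and 24.1% of all genes, and 33.4% and 13.2% of those with a mean of at least 7. In 35 of 37 members the difference was smaller than 0.5 in size, beside a median SE of 0.14.

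**Figure D1:**
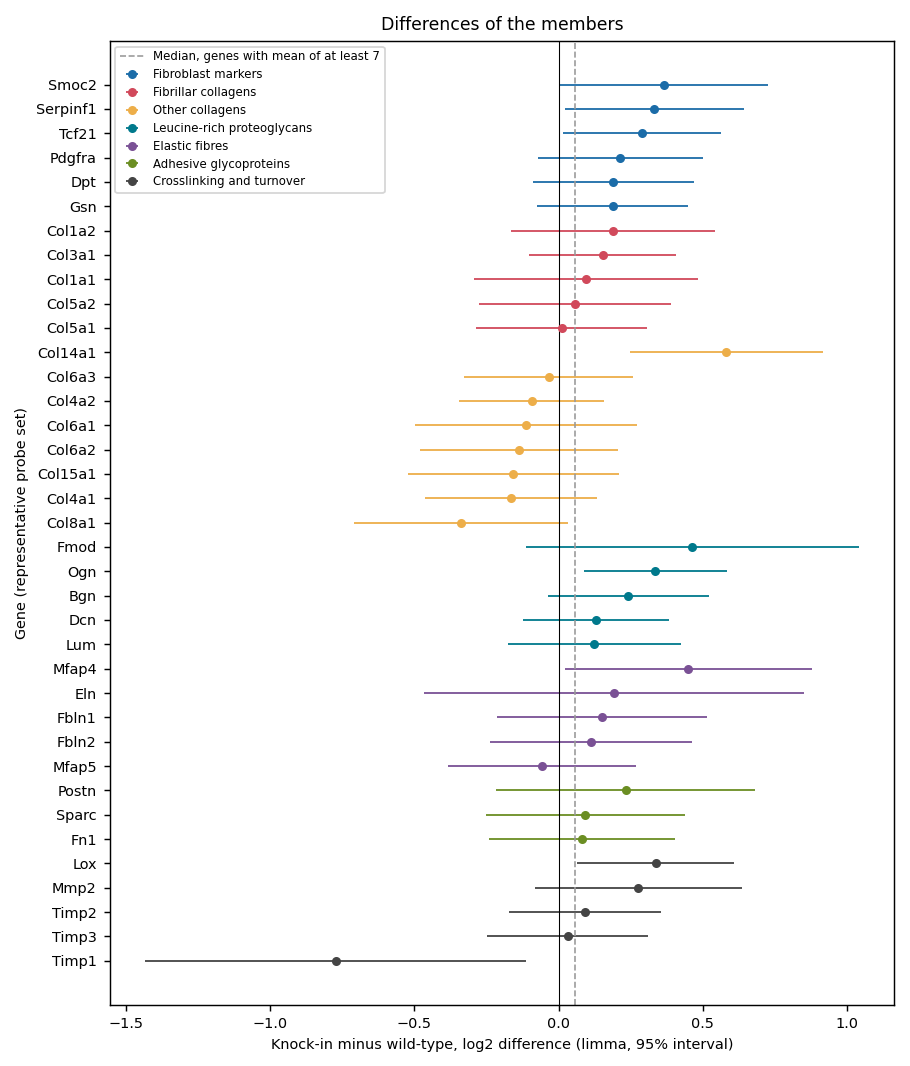
Knock-in minus wild-type log2 difference of the representative probe set of each of the 37 measured genes (points, with limma 95% intervals), coloured by role; the dashed line is the median of genes with a mean log2 value of at least 7. The interval lies on one side of 0 for 8 members, 7 above it and Timp1 below it, and most intervals include the dashed line.

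Promoter sequences are shown for 6 members that stand at different places in these results: Ogn, Tcf21 and Bgn with separate and higher knock-in values, Col1a2 as an overlapping fibrillar collagen, and Col8a1 and Timp1 as the lowest members. They are the 250 bases before the annotated start, from RefSeq on GRCm38.p6, read 5′ to 3′ on the gene's strand, with each GC box (GGGCGG on either strand), a site bound by Sp1-type factors, in capitals.
Ogn, chr13:49607765-49608014, plus strand: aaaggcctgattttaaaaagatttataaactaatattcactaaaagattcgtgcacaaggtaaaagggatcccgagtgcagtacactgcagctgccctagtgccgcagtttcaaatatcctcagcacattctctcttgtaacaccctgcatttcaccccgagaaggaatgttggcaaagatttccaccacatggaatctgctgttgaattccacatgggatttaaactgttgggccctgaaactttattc
Tcf21, chr10:22820144-22820393, minus strand: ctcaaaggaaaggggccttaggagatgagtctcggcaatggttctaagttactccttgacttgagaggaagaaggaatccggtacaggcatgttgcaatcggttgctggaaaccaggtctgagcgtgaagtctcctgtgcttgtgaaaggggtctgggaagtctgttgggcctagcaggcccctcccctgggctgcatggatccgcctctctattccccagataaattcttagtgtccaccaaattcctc
Bgn, chrX:73483351-73483600, plus strand: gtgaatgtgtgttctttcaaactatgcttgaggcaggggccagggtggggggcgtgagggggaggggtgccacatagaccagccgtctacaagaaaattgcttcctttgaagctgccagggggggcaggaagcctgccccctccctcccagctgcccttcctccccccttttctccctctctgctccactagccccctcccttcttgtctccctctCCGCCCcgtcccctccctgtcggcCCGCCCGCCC
Col1a2, chr6:4505368-4505617, plus strand: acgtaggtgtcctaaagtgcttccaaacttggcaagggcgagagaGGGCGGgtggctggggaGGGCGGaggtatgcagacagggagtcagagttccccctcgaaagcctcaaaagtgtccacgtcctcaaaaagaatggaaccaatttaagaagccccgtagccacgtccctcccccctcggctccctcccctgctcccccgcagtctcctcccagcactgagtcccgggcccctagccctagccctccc
Col8a1, chr16:57754738-57754987, minus strand: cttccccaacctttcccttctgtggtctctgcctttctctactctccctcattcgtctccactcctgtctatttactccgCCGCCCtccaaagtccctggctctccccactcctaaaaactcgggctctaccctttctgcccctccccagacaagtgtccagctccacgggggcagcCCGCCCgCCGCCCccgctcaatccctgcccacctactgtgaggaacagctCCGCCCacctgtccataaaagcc
Timp1, chrX:20869916-20870165, plus strand: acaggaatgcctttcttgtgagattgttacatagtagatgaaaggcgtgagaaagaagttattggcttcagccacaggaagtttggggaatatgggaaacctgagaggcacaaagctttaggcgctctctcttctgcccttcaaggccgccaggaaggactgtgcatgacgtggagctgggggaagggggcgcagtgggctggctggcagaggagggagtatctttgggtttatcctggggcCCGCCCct

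The GC box was the motif that the members' promoters held most often. Of the 38 members 26 had a window in the RefSeq table, 31 windows in all, each of 250 bases before and 50 after a start. A GC box lay in 17 of the 31 windows, or 54.8%, against 35.7% of all 32851 windows. It was found on both sides of the expression result: Col8a1 has 4 in the stretch shown, Bgn 3, of which 2 overlap, Col1a2 2 and Timp1 1, while Ogn and Tcf21 show none. A CCAAT box (CCAAT) lay in 32.3% of member windows against 37.4% of all, and a TATA box (TATAAA) in 12.9% against 13.6%, in Col3a1, Dpt, Ogn and Postn. The AP-1 site TGANTCA lay in the Col6a1 window alone, 3.23% against 7.81%. The TCF/LEF site ATCAAAG, 3.73% of all windows, and the SMAD palindrome GTCTAGAC, 0.213% of all, were in none. All motifs were searched on both strands, and a match describes the letters only.

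The whole series bears on these values in a few ways. Array medians lay between 6.14 and 6.23. Over all genes, the SD of the log2 difference was 0.30 from wild-type replicate 1 to either knock-in array, but 0.24 and 0.23 from wild-type replicate 2 to knock-in replicates 1 and 2, beside 0.23 within the wild-type pair and 0.20 within the knock-in pair. The Gapdh control signal at the 3′ end minus that at the 5′ end, which reflects RNA integrity, was 0.76 on knock-in replicate 2 and between 0.54 and 0.62 on the other arrays. Of 16 liver-type genes measured, 16 had a higher knock-in mean, by a median of 1.95, and 0 passed the test. Their median log2 level was 6.22 and 5.52 on the wild-type arrays and 8.98 and 7.20 on knock-in replicates 1 and 2. Cardiac muscle transcripts marked the tissue as heart, with Myh6, the α-myosin heavy chain gene, at 14.53 and 14.61 in wild-type and 14.71 and 14.62 in knock-in hearts. All defining fibroblast markers on the list, among them Pdgfra, Tcf21, Dcn and Lum, lay above the array medians on every array.

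Fibroblast identity markers, which label the cells more than the matrix they make, were the only role in which the genotypes overlapped for no member. Dcn and Lum, which also mark fibroblasts, were counted with the proteoglycans. They differed by 0.13 and 0.12, and the groups of Lum overlapped. All 6 identity markers had every knock-in value above every wild-type value, with a median difference of 0.25. Such separation held for 22.5% of all genes and 33.4% of genes with a mean of at least 7. While 0 of the 6 passed the test, 3 had an unadjusted limma p under 0.05. Among genes with that mean, 7.29% were higher at that p. Of 12 endothelial genes 6 were separate and higher and 0 separate and lower, and of 10 macrophage markers 5 and 1. No rise was established for any of the identity markers, and all 6 were higher on knock-in replicate 2 than on replicate 1. The part of the array in these values was not tested. In heart tissue, more fibroblasts and more RNA per fibroblast could not be told apart in any case. Tcf21, the transcription factor gene that marks resident cardiac fibroblasts, lay at 8.53 and 8.54 in wild-type and at 8.74 and 8.91 in knock-in hearts. The wild-type arrays were nearly equal and both knock-in arrays lay above them, with a log2 difference of 0.29, SE 0.11 and a limma adjusted p of 0.459. Its second probe set, with a mean of 5.07, overlapped and differed by −0.15, and the average of both probe sets by 0.07. Pdgfra, which encodes a growth factor receptor used to identify these cells, lay at 9.59 and 9.80 in wild-type and 9.86 and 9.95 in knock-in hearts. Its knock-in replicate 1 exceeded wild-type replicate 2 only narrowly, and the difference was 0.21 with SE 0.12 (limma adjusted p = 0.514). Its other 2 probe sets, with means of 6.39 and 5.33, differed by 0.17 and 0.44.

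Smoc2, a matricellular calcium-binding protein gene, lay at 10.10 and 9.90 in wild-type and at 10.19 and 10.54 in knock-in hearts. Knock-in replicate 2 was well above the rest and replicate 1 just above wild-type replicate 1, for a 1.29-fold difference (log2 0.37, SE 0.15, limma adjusted p = 0.465). A second Smoc2 probe set had the same order of groups, at 7.15 and 6.92 against 7.70 and 7.37, and differed by 0.50. Serpinf1, which encodes the secreted anti-angiogenic factor PEDF, lay at 9.79 and 9.57 against 9.92 and 10.10. Its groups were separate and its difference was 0.33 with SE 0.13 (limma adjusted p = 0.459), but its second probe set overlapped and differed by 0.05. Dpt, the gene of the collagen-binding protein dermatopontin, differed by 0.19. Gsn, which encodes the actin-severing protein gelsolin and is also expressed outside fibroblasts, differed by 0.19 by its brightest probe set and by between 0.39 and 0.44 by the next 3. These 3 Gsn probe sets had unadjusted limma p-values between 0.00535 and 0.00998, against 0.131 for the brightest. All 3 are of the cross-hybridising type that an alternative fit left out. The dim Gsn probe sets, with means of 5.59 and 4.25, differed by 0.04 and −0.31.

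**Figure D2:**
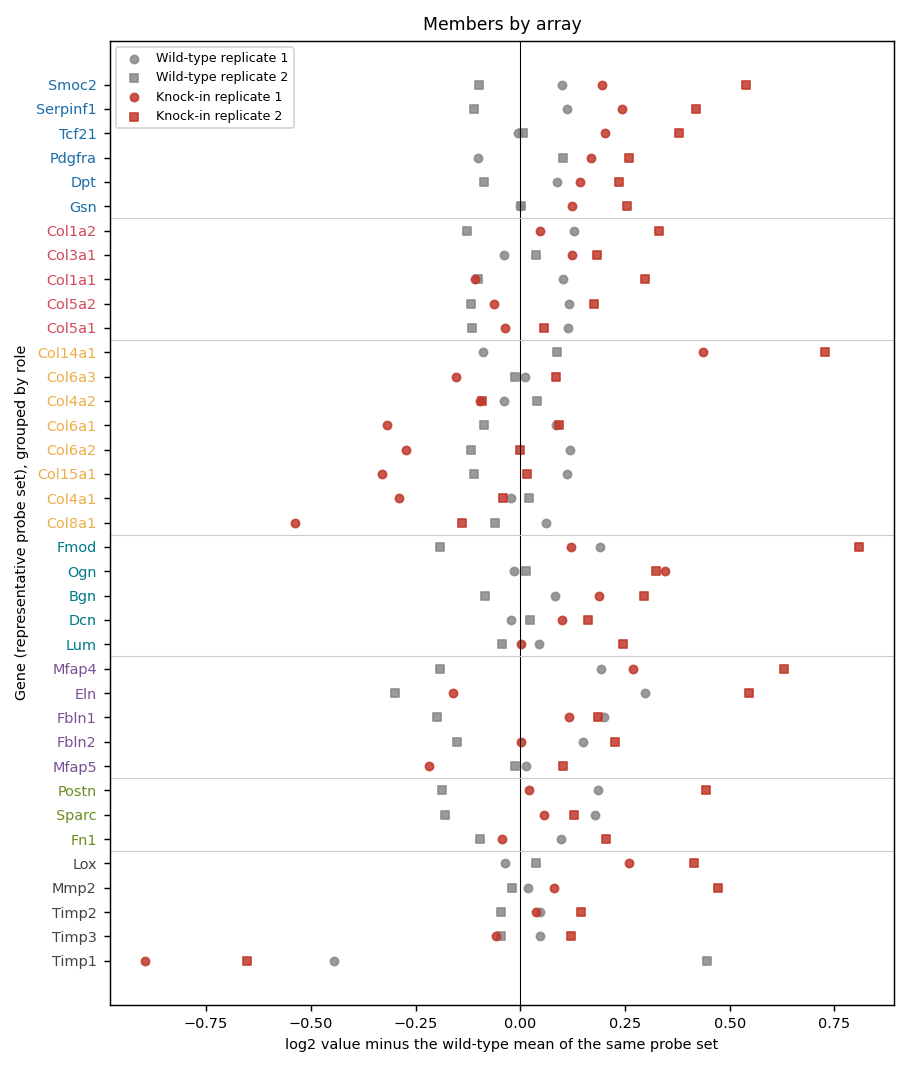
Log2 value of each array minus the wild-type mean of the same probe set, for the representative probe set of each of the 37 measured genes, grouped by role (grey: wild-type, red: knock-in; circles: replicate 1, squares: replicate 2). In the 6 fibroblast identity markers at the top the red points lie right of the grey ones, in most other collagens the red circle lies farthest left, and Timp1 at the bottom has widely separated wild-type values.

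The fibrillar collagens, the tension-bearing fibres of the interstitium, differed less. All 5 had a higher mean in knock-in hearts, with a median difference of 0.10. Only Col3a1 had separate groups, and none reached an unadjusted p under 0.05. Such higher separation held for 22.5% of all genes and 33.4% of those with a mean of at least 7, and 5.45% and 7.29% were higher at that p. Col3a1, the type III chain that makes fine compliant fibrils, lay at 11.929 and 12.005 in wild-type and 12.09 and 12.15 in knock-in hearts. The groups were separate by a narrow margin, and the difference was 0.15 with SE 0.11 (limma adjusted p = 0.579). A second Col3a1 probe set of lower signal lay at 7.07 and 7.35 against 7.64 and 7.72, and differed by 0.47. Col1a2, one of the chains of type I collagen, lay at 11.37 and 11.12 against 11.29 and 11.57. The groups overlapped, with a difference of 0.19 (SE 0.15, limma adjusted p = 0.612) and of 0.20 by its next probe set.

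Col1a1, the partner chain of type I collagen, lay at 10.32 and 10.12 in wild-type and 10.11 and 10.52 in knock-in hearts. Its knock-in arrays enclosed both wild-type arrays; the difference was 0.10 (SE 0.16, 95% interval −0.29 to 0.48, limma adjusted p = 0.828). Its other probe set differed by −0.23, so the direction for this gene depends on the probe set. Col5a1 and Col5a2, chains of the type V collagen that nucleates fibrils, differed by 0.01 and 0.06. Under quantile normalisation or cyclic loess, 3 of the 5 fibrillar genes were higher and 2 lower, Col5a1 and Col5a2 turning sign. Without wild-type replicate 2 or knock-in replicate 2, 2 were higher and 3 lower.

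The other collagens, of basement membranes, beaded filaments and fibril surfaces, formed the one role with mostly lower values. Of 8 genes 7 were lower in knock-in hearts, with a median difference of −0.13, and the one exception, Col14a1, was the member with the highest difference of all. The count depended on knock-in replicate 1, without which 4 genes lay above 0 and 4 below (median 0.0075), and it was 6 of 8 lower with arrays shifted to 1 median. Col8a1, a short-chain network collagen of vessel walls, lay at 9.42 and 9.30 in wild-type and at 8.82 and 9.22 in knock-in hearts. Knock-in replicate 1 was low and replicate 2 just below both wild-type arrays, for a difference of −0.34 with SE 0.15 (limma adjusted p = 0.475). Its other probe sets differed by 0.02 and −0.27. Col4a1 and Col4a2, the main chains of basement membranes, lay below wild-type on both knock-in arrays. Col4a1 lay at 12.68 and 12.73 against 12.42 and 12.66, and differed by −0.16, while its second probe set, at 11.84 and 11.80 against 11.60 and 11.58, differed by −0.23. Col4a2 differed by −0.09.

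Col6a1, Col6a2 and Col6a3, the chains of beaded-filament type VI collagen, differed by −0.11, −0.14 and −0.03, and Col15a1, a collagen at the outer face of basement membranes, by −0.16. In these 4 genes the groups overlapped, with knock-in replicate 1 the lowest of the 4 arrays. Col14a1, which coats fibril surfaces, lay at 7.52 and 7.69 in wild-type and at 8.04 and 8.33 in knock-in hearts. Both knock-in arrays were clearly above both wild-type arrays, with a difference of 0.58 (SE 0.14, 95% interval 0.25 to 0.92), and the limma adjusted p was 0.458. A second Col14a1 probe set, with a mean of 7.06, differed by 0.45, and a dim one, with a mean of 4.69, by −0.04.

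Small leucine-rich proteoglycans, which bind collagen and limit the width of its fibrils, were higher by mean in all 5 genes, with a median difference of 0.24. Of these 3 had separate groups and 1, Ogn, had an unadjusted p under 0.05. Separate and higher were 22.5% of all genes and 33.4% of those with a mean of at least 7. At that p, 5.45% and 7.29% were higher. Ogn (osteoglycin) lay at 10.91 and 10.93 in wild-type and at 11.27 and 11.25 in knock-in hearts. The arrays of each genotype were nearly equal, with a difference of 0.34, SE 0.10 and a limma adjusted p of 0.458. Its second probe set overlapped and differed by 0.05. Bgn (biglycan) lay at 12.33 and 12.17 against 12.44 and 12.55, a difference of 0.24 (SE 0.12, limma adjusted p = 0.485), with its other probe sets at 0.27 and 0.19. All 3 Bgn probe sets had separate groups.

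Fmod (fibromodulin) was the least even of the proteoglycans, at 8.28 and 7.89 in wild-type and 8.21 and 8.89 in knock-in hearts. Knock-in replicate 2 alone was high, and the difference of 0.46 had an SE of 0.24 (limma adjusted p = 0.496). Its 5 other probe sets differed by between 0.12 and 0.57. Dcn (decorin), also a marker of fibroblasts, lay at 13.44 and 13.49 against 13.56 and 13.62. These groups were separate by a small margin, with a difference of 0.13 and SE 0.11 (limma adjusted p = 0.624), and a dim Dcn probe set with a mean of 6.09 differed by −0.30. Lum (lumican), which neighbours Dcn on its chromosome, differed by 0.12 with overlapping groups.

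Among genes of elastic fibres and microfibrils, which give tissue its recoil, 4 of 5 were higher by mean, with a median difference of 0.15. Mfap4, a microfibril-associated protein gene, lay at 8.28 and 7.90 in wild-type and at 8.36 and 8.72 in knock-in hearts. Knock-in replicate 1 just exceeded wild-type replicate 1, so the groups were separate, and the difference was 0.45 with SE 0.18 (limma adjusted p = 0.461). Eln (elastin) lay at 9.45 and 8.85 against 8.99 and 9.69. Its spread within each genotype exceeded its difference of 0.19, and its second probe set differed by −0.11. Fbln1 and Fbln2, the fibulins that link elastic fibres to other matrix, differed by 0.15 and 0.11, and Mfap5 by −0.06. Without wild-type replicate 2 the role turned, with 1 gene higher and 4 lower and a median of −0.05.

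The adhesive and matricellular glycoproteins, which connect cells to matrix, had overlapping groups by the representative probe set of all 3 genes, and without wild-type replicate 2 only 1 of the 3 was higher. Postn (periostin), which activated fibroblasts secrete, lay at 9.96 and 9.59 in wild-type and at 9.80 and 10.22 in knock-in hearts. The genotypes interleaved, with a difference of 0.23 and SE 0.19 (limma adjusted p = 0.622). Fn1 (fibronectin), on which collagen fibrils assemble, lay at 10.28 and 10.09 against 10.14 and 10.39. Its values interleaved as well, for a difference of 0.08 (SE 0.13, 95% interval −0.24 to 0.40, limma adjusted p = 0.823). Sparc, a collagen-binding matricellular protein gene, differed by 0.09, and its other probe sets by −0.01 and −0.27, the latter with separate groups and an unadjusted limma p of 0.046.

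Among genes of crosslinking and turnover 4 of 5 were higher by mean, with a median difference of 0.09, and the exception, Timp1, was the lowest of all members. The count was 3 of 5, with medians of 0.04, 0.05, 0.03 and 0.02, without knock-in replicate 2, without wild-type replicate 2, under quantile normalisation and under cyclic loess. Timp1, an inhibitor of metalloproteinases that is induced by injury and cytokines, lay at 7.72 and 8.61 in wild-type and at 7.27 and 7.52 in knock-in hearts. Wild-type replicate 2 stood far above the other arrays, and wild-type replicate 1 only a little above knock-in replicate 2. The difference was −0.77, or 1.71-fold lower, with SE 0.28 and a 95% interval from −1.43 to −0.11 (limma adjusted p = 0.458). Without wild-type replicate 2 it was −0.33, and without wild-type replicate 1 it was −1.22. Timp2 and Timp3 differed by 0.09 and 0.03, and probe sets of each lay on both sides of 0.

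Lox, the lysyl oxidase gene whose product crosslinks collagen and elastin, lay at 7.59 and 7.67 in wild-type and at 7.89 and 8.05 in knock-in hearts. The groups were separate and each was tight, with a difference of 0.34, SE 0.11 and a limma adjusted p of 0.458, while its next probe set overlapped and differed by 0.17. Mmp2, the gelatinase secreted by fibroblasts, lay at 10.22 and 10.18 against 10.28 and 10.67. Knock-in replicate 1 was close to the wild-type arrays and replicate 2 was high, for a difference of 0.28 with SE 0.15 (limma adjusted p = 0.507).

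The members varied together between arrays of one genotype. In 36 of 37 members knock-in replicate 2 lay above knock-in replicate 1, by a median of 0.24, against 58% of all genes and 72.8% of genes with a mean of at least 7. The exception was Ogn. In 26 of 37 members wild-type replicate 1 lay above wild-type replicate 2, by a median of 0.17, against 59.1% and 50.5%. These gaps within a genotype exceeded the median difference of 0.13 between genotypes. Within the knock-in pair the gap was widest for Eln, at 0.70, and Fmod, at 0.69, whose wild-type gaps were 0.60 and 0.38. Within the wild-type pair it was widest for Timp1, where replicate 2 was the higher array. Wild-type replicate 2 and knock-in replicate 2 were the most unlike pair, with 33 of 37 members higher on the latter by a median of 0.30, whereas from wild-type replicate 1 to knock-in replicate 1 only 14 were higher, with a median of −0.08.

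**Figure D3:**
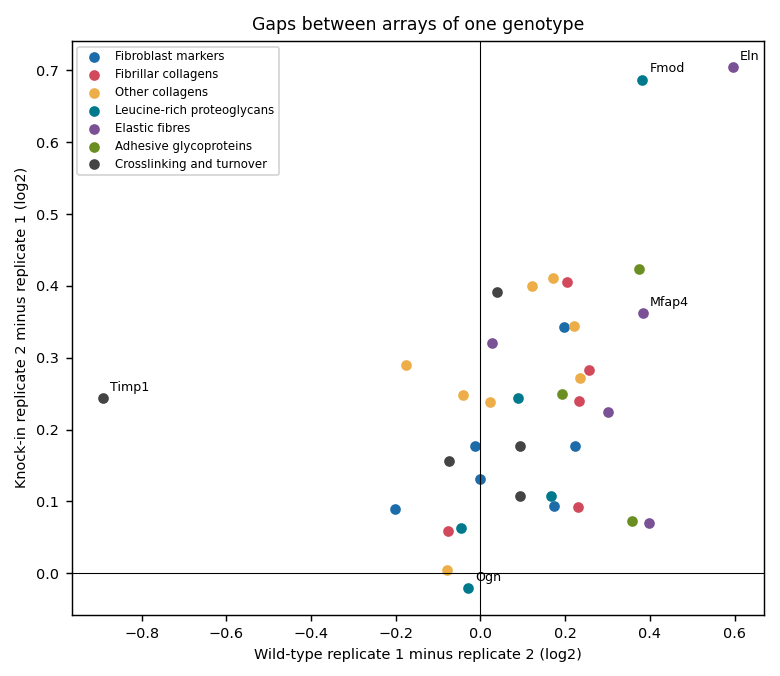
Gap between the 2 knock-in arrays (replicate 2 minus replicate 1, vertical axis) against the gap between the 2 wild-type arrays (replicate 1 minus replicate 2, horizontal axis), in log2 units, for the 37 measured genes, coloured by role. All points but Ogn lie above 0 on the vertical axis, 26 also lie right of 0, and Timp1 lies far left.

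Several other signals moved with these arrays. The 3′ minus 5′ signal of Gapdh was highest on knock-in replicate 2, at 0.76 against 0.54 on knock-in replicate 1, as were most members, and its part in the result was not tested. Liver-type transcripts ran the opposite way between those arrays: 0 of 16 were higher on knock-in replicate 2, where 36 of 37 members were. Alb, the albumin gene, lay at 7.33 and 5.72 in wild-type and at 10.81 and 9.66 in knock-in hearts. Serpinf1 and Fn1 are also made in liver. Without knock-in replicate 1, the array with more liver-type signal, 32 of 37 members were higher with a median of 0.23, and without knock-in replicate 2, 22 were higher with a median of 0.04.

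Lists of other cell types were read in the same way. Among endothelial genes 10 of 12 had a higher knock-in mean (median 0.14, Pecam1 0.25), and of 10 macrophage markers 8 were higher, with a median of 0.10. The endothelial median became 0.04 without knock-in replicate 2 and 0.06 under quantile normalisation, and the macrophage median 0.04 under quantile normalisation or without knock-in replicate 1. Of 12 mural and smooth muscle markers 8 were higher, with a median of 0.07 that became −0.01 under quantile normalisation or cyclic loess. Of 13 cardiomyocyte markers 10 were higher, with a median of 0.06; 2 of these 13 were higher on knock-in replicate 2 than on replicate 1. Epicardial, Schwann cell, adipocyte and cartilage or valve markers had medians of −0.01, 0.05, −0.09 and −0.08, and each median changed sign under a rescaling or with 1 array left out. No marker of these lists passed the test, and whether the fibroblast markers differ from the others was not tested.

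**Figure D4:**
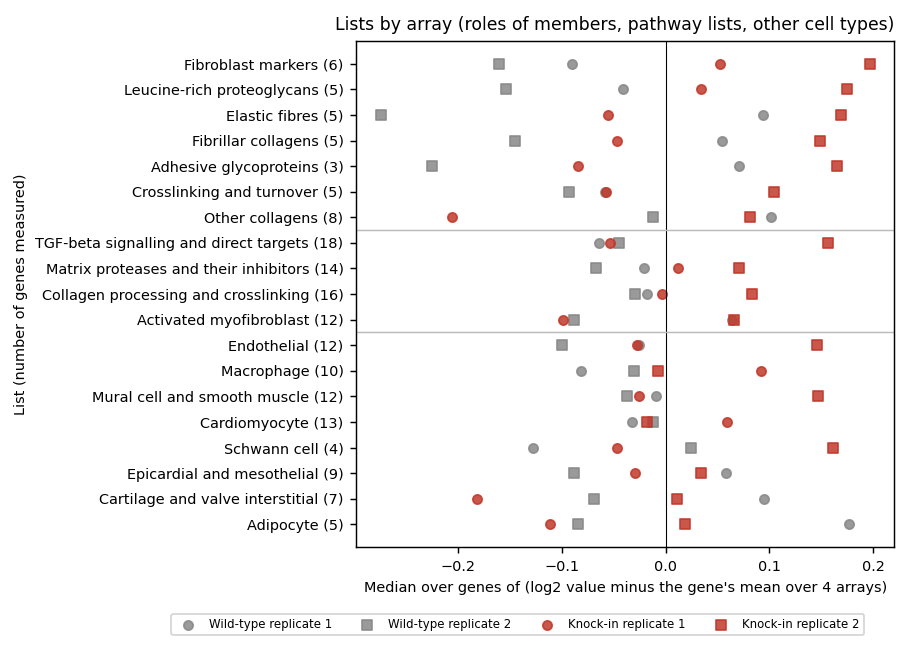
Median over the genes of each list of the log2 value minus the gene's mean over 4 arrays, for each array (grey: wild-type, red: knock-in; circles: replicate 1, squares: replicate 2); top, the 7 roles of the matrix genes, then pathway lists, then other cell types, with the number of genes measured; the liver list, whose medians run from −1.35 to 2.02, is left out. Knock-in replicate 2 is highest for 6 of the 7 roles, and the fibroblast markers and proteoglycans have both knock-in arrays above both wild-type arrays.

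Genes around the matrix list were read from lists set by function. Of 18 genes of TGF-β signalling and its direct targets, the pathway that drives matrix production, 11 were higher, 7 lower and 0 past the test, with a median difference of 0.14. The receptor genes Tgfbr1 and Tgfbr2 had the smallest p: Tgfbr2 lay at 10.13 and 10.26 against 10.48 and 10.53, a difference of 0.31, and Tgfbr1 at 8.84 and 9.30 against 9.47 and 9.51, a difference of 0.42 (limma adjusted p = 0.458 and 0.459). Smad7, an inhibitor of the pathway, differed by 0.26 and Ltbp1, which stores latent TGF-β in the matrix, by 0.29. The 7 lower genes included those of the ligands, Tgfb1, Tgfb2 and Tgfb3, at −0.13, −0.29 and −0.02. With arrays shifted to 1 median 16 of the 18 were higher, whereas without knock-in replicate 2 9 lay above 0 and 9 below (median 0.02), and under quantile normalisation the median was 0.05.

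Collagen processing had 13 genes of 16 above 0 and 3 below (median 0.08), P3h1, a collagen prolyl hydroxylase gene, at 0.27 and Loxl4 at −0.27. Under quantile normalisation 8 were higher and 8 lower. Of 14 matrix proteases and inhibitors 9 were higher and 5 lower. Mmp3, the stromelysin gene, lay at 6.37 and 6.80 in wild-type and at 7.48 and 7.64 in knock-in hearts, a difference of 0.97 (limma adjusted p = 0.329), larger than that of any member. Timp4, the cardiac metalloproteinase inhibitor gene, lay at 9.38 and 9.25 against 8.91 and 8.71, a difference of −0.50 (limma adjusted p = 0.458). Of the 4 Timp genes, Timp1 and Timp4 had separate groups with lower knock-in values. Such lower separation held for 24.1% of all genes and 13.2% of those with a mean of at least 7. Myofibroblast genes had 7 of 12 above 0 and 5 below (median 0.04), a balance that turned to 3 above and 9 below (median −0.08) without knock-in replicate 2 and was even under quantile normalisation. Tnc (tenascin-C) and Col12a1 differed by −0.38 and −0.33 at low signal, Acta2, the smooth muscle actin gene of myofibroblasts, by −0.34 and Fap by 0.33. No gene of these lists passed the test.

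Where a gene had several probe sets, they did not always run one way. Of 22 members with at least 2 probe sets of mean 7 or more, 12 had all of them higher, 3 had all lower (Col4a1, Col6a2 and Mfap5) and 7 had some on each side of 0 (Col1a1, Col5a1, Col8a1, Eln, Sparc, Timp2 and Timp3). The 15 member probe sets with a mean below 7 were split, with 8 higher and 7 lower.

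**Figure D5:**
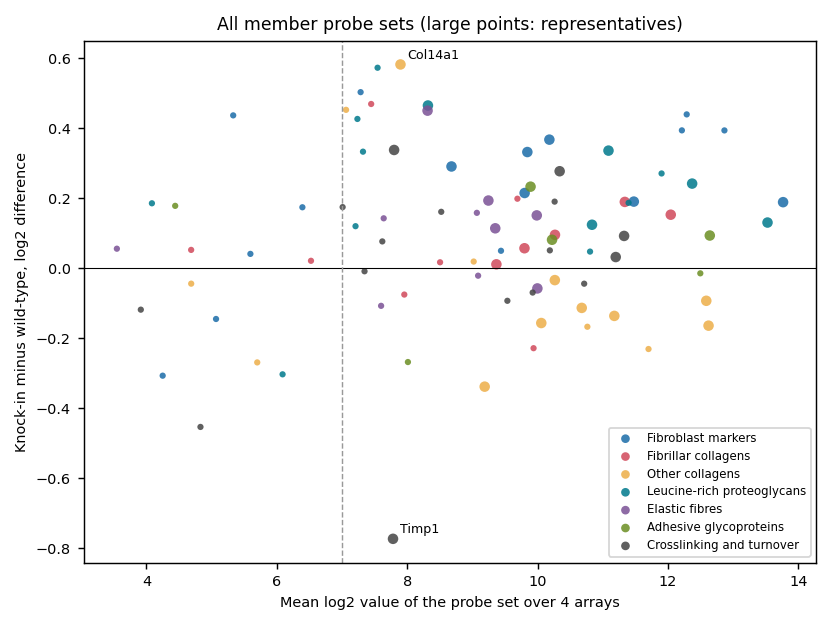
Knock-in minus wild-type log2 difference of all 88 member probe sets against their mean log2 value over 4 arrays, coloured by role; large points are the representative probe sets and the dashed line marks a mean of 7. To the right of it 52 of 73 probe sets lie above 0, with most other collagens below 0, and to the left 8 of 15 do.

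Some members share chromosomal neighbourhoods, which the choice of genes did not use. Col4a1 and Col4a2 are transcribed away from each other, and their promoter windows, chr8:11312777-11313076 on the minus strand and chr8:11312555-11312854 on the plus strand, overlap by 78 bases. Both had lower knock-in values with separate groups, at −0.16 and −0.09. Dcn and Lum are direct neighbours among protein-coding genes and differed by 0.13 and 0.12, Col6a1 and Col6a2 by −0.11 and −0.14, and Col3a1 and Col5a2 by 0.15 and 0.06. The neighbours of each pair had the same sign by their representative probe sets. For 3 of the 4 pairs this did not hold in every alternative: Col5a2 turned sign under quantile normalisation, cyclic loess or without either replicate 2, Dcn lay at −0.09 with its probe sets averaged, and Col6a1 at 0.09 without knock-in replicate 1. None of the differences passed the test.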

How the data were processed

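The authors deposited log2 values, 1 per probe set and array. Per the submitters' processing notes these are RMA values from Affymetrix Expression Console, for which no version or filter is given in the sources used here. RMA removes differences shared by most genes. Each wild-type array was scaled together with the GSK-3α knock-in arrays only, per the labels. After 64 control probe sets were left out, 45037 went into 1 model (lmFit and eBayes of limma 3.58.1, R 4.3.3, no covariate, Benjamini-Hochberg over all probe sets). Each probe set had 2 residual degrees of freedom, to which the prior added 4.54, and the median standard error was 0.12, since the number of arrays limits the precision. Names came from 34945 probe sets with 1 symbol, while 932 had several and 9160 none, and 18032 of 18193 genes matched the RefSeq gene table by gene ID. Tables and plots used matplotlib 3.10.9, pandas 2.3.3 and numpy 2.4.6 under Python 3.11.15.

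The members and lists were chosen with earlier results of these data known. All members are named, and the 12 of smallest p and 11 chosen by name are given by array. From each other list up to 4 of smallest p are given, plus the TGF-β ligand genes. The fit was tested on simulated data, where it called 65.3% of probe sets changed by a log2 value of 1 and 0.0227% of unchanged ones. Whether these shares hold for the 4 arrays was not tested. On the arrays 3 probe sets were called in all. Mmp3 at 0.97, Cyp3a11, a liver-type gene, at 3.22 and Alb at 3.71 were not called (limma adjusted p = 0.329, 0.153 and 0.278). Changes below 1 were not simulated. Every member difference was below 1 in size, so how often the test would call such differences is not known. Alternatives were other prior variances, filters on dim or cross-hybridising probe sets, rescaling between arrays, weights per array, a replicate block, 1 array omitted at a time, another threshold and other ways to choose or average a gene's probe sets.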

Additional observations from a re-analysis of the deposited data

How the results depend on the processing

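Across 16 alternatives no member passed the test, and the lowest limma adjusted p of a member was 0.19, for Col14a1 without wild-type replicate 2. The members' median stayed between 0.04 and 0.23, and 22 of 37 members kept their sign in every alternative run. The number of probe sets called, 3, became 1 with a mean of at least 7 required, 11 with arrays shifted to 1 median, 5 at an adjusted p under 0.1 and 0 to 2 with 1 array left out. The cause was not tested. The median of the fibroblast identity markers, 0.25, became 0.38 with the probe set of largest variance. It fell to 0.18 without knock-in replicate 2 and to 0.19 under quantile normalisation or cyclic loess. With 1 array left out the median of the other collagens lay between −0.28 and 0.0075 and that of the proteoglycans between 0.12 and 0.32. The members' median was 0.07 after quantile normalisation or cyclic loess and 0.19 with arrays shifted to 1 median, while that of all genes was −0.02, −0.01 and 0.05.

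Signs turned for members of small difference. With arrays shifted to 1 median Mfap5 lay at 0.0023 and Col6a3 at 0.026. Col5a2, Timp3 and Col5a1 lay at −0.016, −0.044 and −0.074 after quantile normalisation and at −0.021, −0.041 and −0.064 after cyclic loess. When probe sets of a gene were averaged, Dcn lay at −0.087, Timp2 at −0.076, Sparc at −0.063, Col1a1 at −0.067 and Col5a1 at −0.016. With the probe set of largest variance these lay at −0.30, −0.45, −0.27, −0.23 and −0.076. Leaving out 1 array gave ranges across 0 for Fbln1 (−0.048 to 0.35), Fbln2 (−0.037 to 0.26), Eln (−0.16 to 0.55), Sparc (−0.086 to 0.27), Fn1 (−0.044 to 0.21), Col1a1 (−0.11 to 0.30), Col5a2 (−0.063 to 0.18), Timp3 (−0.057 to 0.12), Col5a1 (−0.10 to 0.13), Col15a1 (−0.33 to 0.015), Col6a1 (−0.32 to 0.092), Mfap5 (−0.22 to 0.10) and Col6a3 (−0.15 to 0.09).

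With the replicate number as a block, 4 probe sets and 0 members were called and the members' median was 0.13. The labels give the number no meaning, and the deviations of same-numbered arrays correlated at 0.085 over 45037 probe sets and at −0.37 over the 37 members.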
